A study of Homo sapiens with 8 samples.

Results

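The let-7 3p arms are the passenger strands of the let-7 microRNA hairpins, and their levels and shares were compared between 786O cells given a control plasmid and 786O cells given a circSOD2-sh plasmid. Members were chosen by name, as the entries of the count table that begin with hsa-let-7 and end with the 3p suffix. The rule took 10 of the 3112 entries, let-7a-2-3p among them. Of those 3112 entries, 1482 carry names of known miRNAs and 1630 are predicted miRNAs.

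Small RNA sequencing was performed on total RNA of 786O, a human clear cell renal cell carcinoma line. The negative control group (NC, n = 4 libraries) received a control plasmid and the circSOD2-sh group (n = 4 libraries) received a plasmid for a short hairpin RNA against circSOD2, a circular RNA of the SOD2 gene. Per the labels, both were transfected with Lipofectamine 3000 and RNA was taken 48 hours later, whereas the methods of the study describe lentiviral shRNA and puromycin selection for its stable lines, and which hairpin was used here is not stated. CircSOD2 is not a miRNA and has no entry in the table, so its level in these libraries was not measured. NC libraries held 6386872 to 9245044 counts and circSOD2-sh libraries 3743860 to 4208276. Predicted miRNAs took 58.1% to 63.8% of NC counts but only 3.54% to 4.93% of circSOD2-sh counts. Nothing states whether the libraries of a group came from separate cultures, so p-values measure only the spread between these libraries.

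Each let-7 hairpin is cut by Drosha and then by Dicer into a duplex of a 5p arm and a 3p arm. Argonaute usually keeps the 5p arm, the guide that carries the let-7 seed and represses growth-promoting targets such as RAS genes, HMGA2 and LIN28, and the 3p arm is mostly discarded. The level of a 3p arm therefore depends on how much precursor is processed and on which strand is kept, and the 2 arms of a hairpin need not move together. In a bulk sample, a lower level in every cell and fewer cells with the miRNA cannot be told apart.

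Mature sequences from RefSeq (GRCh38.p14) matched 9 of the 10 members, and they are shown because let-7a-2-3p and let-7g-3p share a seed and let-7a-2-3p, let-7c-3p and let-7e-3p share a 3′ end. They are written 5′ to 3′, with the seed (bases 2 to 8) in capitals, and grouped by seed. The sequence of let-7f-2-3p is missing.
hsa-let-7a-3p: cUAUACAAucuacugucuuuc
hsa-let-7b-3p: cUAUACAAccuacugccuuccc
hsa-let-7f-1-3p: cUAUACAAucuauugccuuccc
hsa-let-7a-2-3p: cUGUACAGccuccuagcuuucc
hsa-let-7g-3p: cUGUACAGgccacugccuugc
hsa-let-7c-3p: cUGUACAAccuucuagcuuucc
hsa-let-7d-3p: cUAUACGAccugcugccuuucu
hsa-let-7e-3p: cUAUACGGccuccuagcuuucc
hsa-let-7i-3p: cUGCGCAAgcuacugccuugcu

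The 3p arms differ far more among themselves than the guides do. Between any 2 of the 9 sequences there were 2 to 11 base edits (median 6), against 1 to 6 (median 3) between the 8 guide arms, which share a single seed, GAGGUAG. The 9 sequences carry 6 seeds. The seed UAUACAA is shared by let-7a-3p, let-7b-3p and let-7f-1-3p, and UGUACAG by let-7a-2-3p and let-7g-3p. The closest 3p pairs, let-7a-2-3p with let-7c-3p, let-7a-2-3p with let-7e-3p and let-7b-3p with let-7f-1-3p, were 2 edits apart, so reads with errors could be split between their entries, and how the counting treated such reads is not given in the sources used here.

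Outside the seed, let-7a-2-3p, let-7c-3p and let-7e-3p end in the same 10 bases, cuagcuuucc, which no other of the 2370 mature miRNAs in the reference contains on its own strand (3 of 2370, 0.127%). Their hairpins also had the shortest distance between the 5p and 3p arms, 23 bases in each, against 26 to 35 bases in the other 7 hairpins for which both arms had a position. As background, the precursors of let-7a-2, let-7c and let-7e are the let-7 precursors known to leave Drosha with the usual 3′ overhang, whereas the others carry a shorter one that terminal uridylyltransferases extend before Dicer acts. These shared features were noted after the values were seen and were not tested.

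By position (GRCh38; hosts from GENCODE v29), 11 let-7 hairpin genes give rise to the 10 members. MIRLET7A2 lies on the minus strand at chr11:122146522-122146593 in an intron of MIR100HG, 5635 bases from MIR100 and 46677 bases from MIR125B1. MIRLET7C lies on the plus strand at chr21:16539828-16539911 in an intron of MIR99AHG, 658 bases from MIR99A and 50325 bases from MIR125B2. MIRLET7E lies on the plus strand at chr19:51692786-51692864 in an intron annotated to SPACA6, 104 bases from MIR99B and 389 bases from MIR125A. The 3 members with the shared 3′ end thus each sit beside a miR-99 or miR-100 gene and a miR-125 gene.

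The other members come from loci without such neighbours. MIRLET7F1 (chr9:94176347-94176433, plus strand) lies in an intron of the long non-coding RNA AL158152.2, 310 bases from MIRLET7A1 and 2400 bases from MIRLET7D (chr9:94178834-94178920). MIRLET7F2 (chrX:53557192-53557274, minus strand) is intronic in HUWE1, 850 bases from MIR98, and MIRLET7G (chr3:52268278-52268361, minus strand) is intronic in WDR82. MIRLET7I lies at chr12:62603686-62603769 on the plus strand, in an intron of AC048341.1. MIRLET7B lies in an exon of MIRLET7BHG at chr22:46113686-46113768, 863 bases from MIRLET7A3. The entry let-7a-3p covers MIRLET7A1 and MIRLET7A3, whose 3p arms are identical.

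Levels are given as normalized CPM, counts per 1000000 of a library total adjusted by the trimmed mean of M values (TMM). A level of 3 counts, taken as the floor, was worth 0.46 to 0.674 normalized CPM, and the lowest count of any member was 9. P-values are two-sided and from edgeR's quasi-likelihood test, Benjamini-Hochberg adjusted over the 895 miRNAs that passed the filter on low counts, and a miRNA was called at an adjusted p under 0.05.

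Before the members are described, 2 libraries stood apart in miRNAs of other cell types. In circSOD2-sh replicate 2 the summed level of 6 neural miRNAs was 5254 normalized CPM, whereas the rest of its group stood at 476 to 494 and NC at 522 to 561. Its most abundant neural miRNA was miR-124-3p, a neuron-enriched miRNA, at 3217 normalized CPM, and over all libraries the most abundant was miR-128-3p. In NC replicate 4 the summed level of miR-143-3p and miR-145-5p, miRNAs of smooth muscle and stroma, was 537 normalized CPM, whereas NC replicates 1 to 3 stood at 7.08 to 8.36. The same sum was 219 in circSOD2-sh replicate 2 and 7.65 to 12.4 in the rest of that group. Their part in the results was tested only by leaving them out.

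The remaining marker lists showed the following. The 6 miRNAs of kidney and renal lines summed to 165614 to 189422 normalized CPM in NC libraries and to 152027 to 209329 in circSOD2-sh libraries, led by miR-21-5p. Below it in level, miR-192-5p and miR-194-5p stood at 952.5 and 92.4 normalized CPM in NC replicate 4 but at only 335 to 361 and 27.6 to 30.2 in NC replicates 1 to 3, while circSOD2-sh replicate 2 had 164 counts of miR-204-5p against at most 9 elsewhere and 0 in 2 NC libraries. In circSOD2-sh miR-192-5p was at 269 to 282 and was called lower (log2 -0.87, adjusted p = 0.035). Of the same list miR-210-3p was called lower (-0.54, adjusted p = 0.015) and miR-30a-5p higher (0.25, adjusted p = 0.035). Neither miR-21-5p (-0.03, adjusted p = 0.802) nor miR-194-5p (-0.92, adjusted p = 0.0619) was called, and miR-204-5p did not pass the filter. For the 5 blood miRNAs, the sum was 9.04 to 25.0 in NC replicates 1 to 3, 129 in NC replicate 4, 47.0 in circSOD2-sh replicate 2 and 12.1 to 20.1 in the other circSOD2-sh libraries, led by miR-451a, and miR-223-3p never exceeded 2 counts. The 3 striated muscle miRNAs, led over all libraries by miR-1-3p, summed to 9.38 to 15.7 in NC replicates 1 to 3, 41.1 in NC replicate 4 and 10.7 to 29.1 in circSOD2-sh, and miR-206 was at 0 in 5 libraries but led the list in NC replicate 4 (108 counts, 24.3 normalized CPM), where miR-1-3p was at 6.74. The liver miRNA miR-122-5p was at 3.75 to 5.83 in NC and 1.36 to 2.49 in circSOD2-sh.

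All 10 let-7 3p arms passed the filter on low counts. The entries let-7a-2-3p, let-7f-1-3p, let-7e-3p and let-7c-3p were higher in circSOD2-sh, and let-7f-2-3p and let-7g-3p were lower; the lower ones turned with library totals, which moved the median log2 fold change of all 895 miRNAs by 0.96 and left let-7f-2-3p at 0.68 and let-7g-3p at 0.07. The remaining 4, let-7a-3p, let-7b-3p, let-7d-3p and let-7i-3p, did not pass the test. Over all 895 miRNAs, 33.3% were called higher and 32.4% lower (65.7% in all), so 4 of 10 higher and 2 of 10 lower were near the shares over the whole table. The median log2 fold change was 0.11 over the 10 members and 0.00 over all 895. For 5 of the 10 members the NC and circSOD2-sh libraries did not overlap, against 60.3% of the 895.

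**Figure D1:**
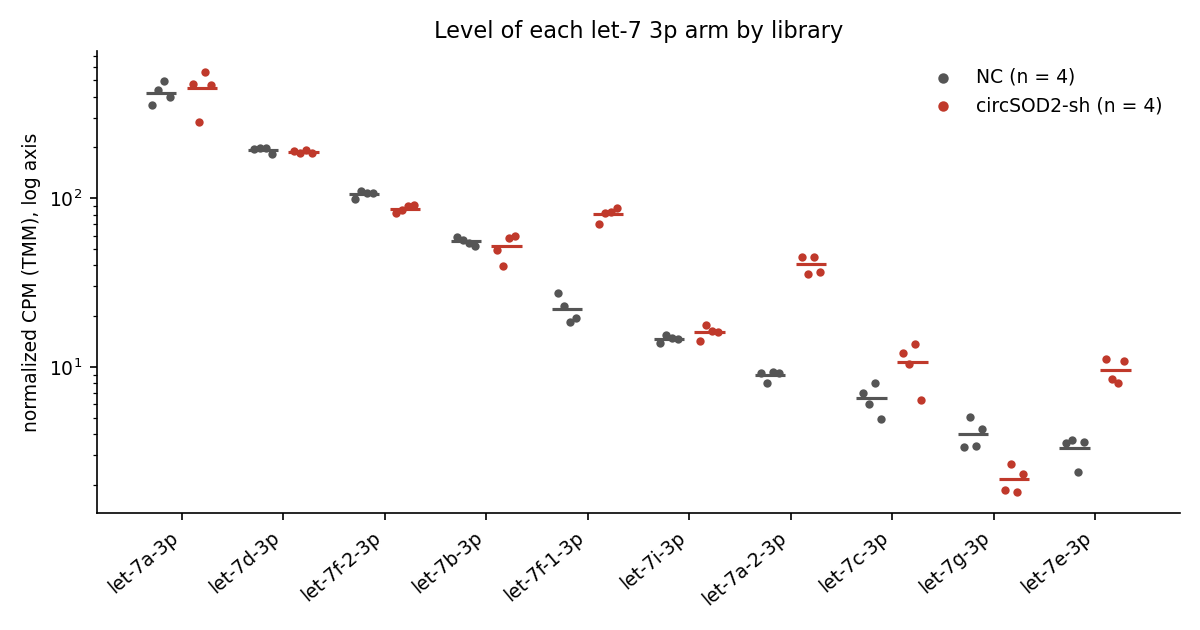
Level of the 10 let-7 3p arms in each library, in TMM-normalized CPM on a log axis, ordered by the NC mean; points are libraries (n = 4 in each group) and lines are group means. The circSOD2-sh libraries lie above all NC libraries for let-7f-1-3p, let-7a-2-3p and let-7e-3p and below them for let-7f-2-3p and let-7g-3p, while let-7c-3p overlaps; with library totals as the scaling let-7f-2-3p was called higher in circSOD2-sh (log2 0.68) and let-7g-3p was not called (0.07).

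The 3p arm of let-7a-2 had the largest fitted change among the members. Its level was 9.20, 8.01, 9.38 and 9.21 normalized CPM in NC replicates 1 to 4 and 45.0, 35.5, 44.9 and 36.5 in circSOD2-sh replicates 1 to 4. Every circSOD2-sh library was far above every NC library, and the spread within each group was small beside that gap. The change was 4.52-fold (log2 2.18, SE 0.15, adjusted p = 4.83e-07), from 8.95 ± 0.635 to 40.5 ± 5.22 (SD, n = 4). Among all 895 miRNAs, 74.1% had a smaller absolute log2 fold change, so a change of this size was not rare in the comparison.

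The let-7e 3p arm, from the MIR99B and MIR125A cluster, was at 3.53, 3.69, 2.39 and 3.60 normalized CPM in NC and 11.2, 8.47, 8.03 and 10.8 in circSOD2-sh. The groups did not overlap, although the counts were few, 14 to 24 in NC and 40 to 66 in circSOD2-sh. It rose 2.91-fold (log2 1.54, SE 0.20, adjusted p = 7.89e-05).

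The let-7c 3p arm was at 7.06, 6.004, 8.01 and 4.94 normalized CPM in NC and 12.1, 10.4, 13.6 and 6.40 in circSOD2-sh. Replicates 1 to 3 of circSOD2-sh were above all NC libraries, whereas replicate 4 fell within the NC range. The call was made on a log2 fold change of 0.70 (SE 0.25, adjusted p = 0.0319) and was lost when NC replicate 1, 2 or 4 or circSOD2-sh replicate 1, 2 or 3 was left out (log2 0.69, 0.59, 0.55, 0.50, 0.59 and 0.40; adjusted p = 0.0645, 0.11, 0.103, 0.143, 0.068 and 0.191). Without NC replicate 4 and circSOD2-sh replicate 2 together it was 0.50 (adjusted p = 0.128). The call was also lost with no filter on low counts (0.68, adjusted p = 0.0718) and with the totals of known miRNAs as the scaling (0.35, adjusted p = 0.225). The direction was kept in all of these.

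The let-7f-1 3p arm, from the chromosome 9 cluster that also holds let-7a-1 and let-7d, was at 27.3, 23.1, 18.6 and 19.6 normalized CPM in NC and 70.4, 81.7, 83.1 and 88.0 in circSOD2-sh. All circSOD2-sh libraries were at least 70.4 and all NC libraries at most 27.3. It rose 3.64-fold (log2 1.87, SE 0.15, adjusted p = 1.97e-06). Its nearest hairpins are MIRLET7A1 and MIRLET7D. The entries let-7a-3p and let-7d-3p did not pass the test with TMM, but with library totals both were called higher (log2 1.06 and 0.92). Because let-7a-3p also counts MIRLET7A3 on chromosome 22, the 3p arm of MIRLET7A1 was not tested on its own. The let-7f-1 3p arm has neither the shared 3′ end nor the 23-base loop of let-7a-2, let-7c and let-7e.

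Among the lower members, let-7f-2-3p was at 99.5, 111, 107.6 and 106.8 normalized CPM in NC and 81.6, 85.3, 90.1 and 90.5 in circSOD2-sh. The groups were close but did not overlap, with a log2 fold change of -0.29 (SE 0.090, adjusted p = 0.0173). This change was 0.68 with library totals and not called with no filter on low counts (-0.32, adjusted p = 0.119). It was -0.46 without circSOD2-sh replicate 3 and -0.63 with the totals of known miRNAs, both called (adjusted p = 0.00823 and 0.000203). The let-7g 3p arm was the least abundant member in circSOD2-sh, at 3.37, 5.08, 3.41 and 4.27 normalized CPM in NC and 1.87, 2.65, 1.81 and 2.31 in circSOD2-sh. It carries the same seed as let-7a-2-3p, yet it was lower in every circSOD2-sh library (log2 -0.89, SE 0.22, adjusted p = 0.00587), on counts of 19 to 33 in NC and 9 to 15 in circSOD2-sh. With library totals its log2 fold change was 0.07 (adjusted p = 0.79).

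The 4 members that did not pass the test with TMM were abundant or intermediate in level. The most abundant, let-7a-3p, was at 355, 438, 495 and 396 normalized CPM in NC and 474, 284, 561 and 470 in circSOD2-sh, and replicate 2 of circSOD2-sh, the library with high neural miRNAs, was the lowest of all 8. Its log2 fold change was 0.09 (SE 0.19, adjusted p = 0.701). The let-7d 3p arm was at 183 to 199 in NC and 184 to 192 in circSOD2-sh (log2 -0.05, SE 0.078, adjusted p = 0.61). For let-7b-3p the ranges were 51.9 to 58.9 and 39.7 to 59.6 (adjusted p = 0.546), and for let-7i-3p 14.0 to 15.5 and 14.3 to 17.8 (adjusted p = 0.409). With library totals let-7a-3p, let-7b-3p, let-7d-3p and let-7i-3p were all called higher (log2 1.06, 0.87, 0.92 and 1.09, adjusted p = 0.000603, 0.000355, 5.71e-06 and 3.43e-05), while with the totals of known miRNAs let-7b-3p was called lower (-0.44, adjusted p = 0.0287), as was let-7d-3p.

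The order of the members by level changed in the middle and at the end of the list. In NC the order was let-7a-3p (421 ± 59.7 normalized CPM), let-7d-3p (194.0 ± 7.41), let-7f-2-3p (106.2 ± 4.81), let-7b-3p (55.5 ± 2.96), let-7f-1-3p (22.1 ± 3.95) and let-7i-3p (14.7 ± 0.656; SD, n = 4 for all), with no overlap between neighbours. Below them, let-7a-2-3p (8.95 ± 0.635), let-7c-3p (6.50 ± 1.33), let-7g-3p (4.03 ± 0.811) and let-7e-3p (3.30 ± 0.613) overlapped from each to the next. In circSOD2-sh let-7f-1-3p (80.8 ± 7.47) reached let-7f-2-3p (86.9 ± 4.26) within their spread, let-7a-2-3p (40.5 ± 5.22) reached let-7b-3p (51.7 ± 9.18), and let-7e-3p (9.64 ± 1.62) was level with let-7c-3p (10.6 ± 3.11) and above let-7g-3p (2.16 ± 0.396). The 9 members with a sequence are 21 or 22 bases long, and reads of different small RNAs are captured with different efficiency.

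The names let-7a and let-7f each hold 3p arms made from different hairpins, and the split between them does not depend on library scaling. Of the let-7f 3p counts, let-7f-1-3p made up 21.5%, 17.2%, 14.7% and 15.5% in NC replicates 1 to 4 and 46.3%, 48.9%, 48.0% and 49.3% in circSOD2-sh replicates 1 to 4. The highest NC library (178 of 827 counts, 95% Wilson interval 18.9% to 24.5%) and the lowest circSOD2-sh library (414 of 894, 43.1% to 49.6%) were well apart. The means were 17.2% ± 3.04 and 48.1% ± 1.34 (SD, n = 4).

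For let-7a, let-7a-2-3p made up 2.53%, 1.79%, 1.86% and 2.27% of the 3p counts in NC and 8.68%, 11.1%, 7.42% and 7.20% in circSOD2-sh. Again no libraries overlapped (2.11% ± 0.348 against 8.60% ± 1.79, SD, n = 4), and circSOD2-sh replicate 2 was the highest, as its let-7a-3p level was the lowest. The matching 5p arms cannot be split in this way, because the hairpins of let-7a and those of let-7f each give an identical guide. These splits were noted after the values were seen and are given without a test. Intervals and floors cover counting error only, since PCR copies of a molecule are counted as separate reads.

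**Figure D2:**
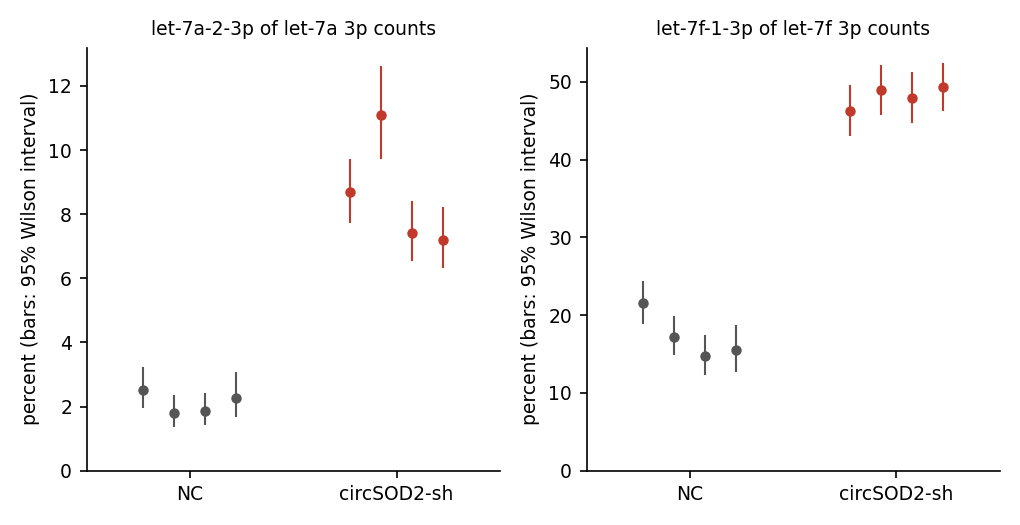
Percent of let-7a 3p counts listed as let-7a-2-3p (left) and percent of let-7f 3p counts listed as let-7f-1-3p (right), for each of the 4 NC and 4 circSOD2-sh libraries; bars are 95% Wilson intervals of counting error. In let-7f the share went from 14.7% to 21.5% in NC to 46.3% to 49.3% in circSOD2-sh.

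The share of the 3p arm in each hairpin family was then taken as 3p counts over 3p plus 5p counts, with the entries of numbered hairpins of a name summed (8 families). The shares spanned from 0.0555% ± 0.0102 for let-7g to 27.7% ± 0.549 for let-7d in NC (SD, n = 4), so let-7d was the only let-7 family in which more than 10% of the arm counts came from the 3p side. The log2 ratio between the 3p and 5p arms was tested with limma over the 129 hairpin families with both arms past the filter. A higher ratio in circSOD2-sh was found for 4 let-7 families (let-7e, let-7a, let-7i and let-7f) and a lower one for let-7d, against 30.2% higher and 29.5% lower over the 129 families. The median log2 change of the ratio was 0.55 over the 8 let-7 families and 0.03 over all 129.

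In let-7e, whose 3p arm was called higher and whose guide was called lower with TMM, the 3p share was 0.742%, 0.757%, 0.470% and 0.745% in NC and 3.68%, 2.29%, 2.67% and 3.62% in circSOD2-sh. Every circSOD2-sh library was above every NC library by a wide margin (0.679% ± 0.139 against 3.06% ± 0.693). The ratio rose 4.21-fold (log2 2.07, SE 0.21, adjusted p = 1.62e-05), and the change was 1.93 to 2.21 with any library left out.

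In let-7d the direction was opposite. Its 3p share was 28.4%, 27.4%, 27.2% and 27.9% in NC and 21.9%, 22.7%, 22.0% and 21.0% in circSOD2-sh. The groups were narrow and separate (log2 ratio -0.45, SE 0.10, adjusted p = 0.00418), and the 95% Wilson intervals ran from 25.9% to 29.7% in NC and from 19.9% to 23.9% in circSOD2-sh. Which arm moved depended on the scaling: with TMM let-7d-5p was called higher and let-7d-3p was not called, whereas with the totals of known miRNAs let-7d-3p was called lower (log2 -0.39, adjusted p = 0.00361) and let-7d-5p was not called (0.07).

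The let-7a family went from 4.31%, 4.54%, 4.73% and 4.10% in NC to 7.81%, 5.52%, 8.69% and 7.54% in circSOD2-sh (log2 ratio 0.77, SE 0.16, adjusted p = 0.00265), with replicate 2 of circSOD2-sh nearest to the controls. For let-7f the share was 0.988% to 1.14% in NC and 1.38% to 1.75% in circSOD2-sh (log2 ratio 0.54, SE 0.12, adjusted p = 0.00418). For let-7i it was 0.127% to 0.134% and 0.157% to 0.255% (log2 ratio 0.55, SE 0.16, adjusted p = 0.0124), with circSOD2-sh replicate 2 the highest. In these families the NC and circSOD2-sh libraries did not overlap. How often the shares of the 2 groups were separate over all 129 hairpin families, here or for let-7e and let-7d, was not counted.

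The families let-7b, let-7c and let-7g overlapped between groups and did not pass the main test. Their log2 ratio changes were 0.40 (adjusted p = 0.081), 0.74 (adjusted p = 0.0716) and -0.46 (adjusted p = 0.128). Without circSOD2-sh replicate 2 the changes were 0.56, 0.93 and -0.65, and all passed (adjusted p = 0.00532, 0.0377 and 0.0121). Without NC replicate 4 as well, let-7b and let-7g passed (0.52 and -0.65, adjusted p = 0.0122 and 0.0236). With all libraries kept and the replicate number as a block, let-7c and let-7g passed (adjusted p = 0.0125 and 0.0406). Other settings gave smaller changes. With any library left out the ranges were 0.32 to 0.56, 0.53 to 0.93 and -0.65 to -0.29. None of these families passed when a single library other than circSOD2-sh replicate 2 was left out. With a constant of 2 normalized CPM let-7g was at -0.23 (adjusted p = 0.34).

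**Figure D3:**
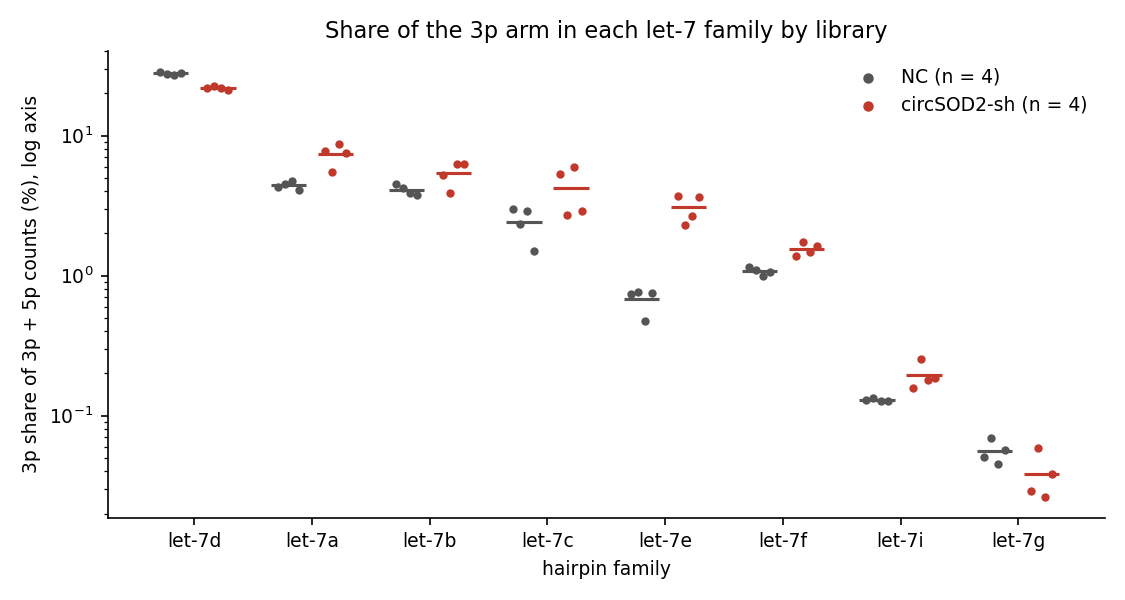
Share of the 3p arm in 3p plus 5p counts for the 8 let-7 families, in percent on a log axis, by library; points are libraries (n = 4 in each group) and lines are group means. All circSOD2-sh libraries lie above NC in let-7a, let-7e, let-7f and let-7i and below NC in let-7d.

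Summed over all members, the 3p arms made up 1.95%, 1.98%, 1.998% and 1.82% of the let-7 counts in NC and 2.67%, 2.55%, 2.89% and 2.77% in circSOD2-sh. The groups did not overlap (1.94% ± 0.0823 against 2.72% ± 0.146, SD, n = 4). With TMM the summed 3p arms were at 836.3 ± 63.3 in NC and 933.5 ± 133 in circSOD2-sh, and the groups overlapped. The summed guides were at 42326 ± 2450 and 33252 ± 3170 normalized CPM. These levels depend on the scaling. As shares of all counts listed for a library both sums were higher in every circSOD2-sh library than in any NC library. As shares of the counts of known miRNAs both sums were lower in every circSOD2-sh library than in any NC library.

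Of the 8 guide arms, let-7a-5p, let-7b-5p, let-7e-5p and let-7i-5p were lower in circSOD2-sh and let-7d-5p was higher, although with library totals the lower ones turned (log2 0.35, 0.45, 0.32 and 0.55). Over all 895 miRNAs, 32.4% were lower and 33.3% higher. The let-7e guide fell by 0.65 on the log2 scale (SE 0.094, adjusted p = 0.000175), from 472 to 505 normalized CPM in NC to 289 to 362 in circSOD2-sh. The let-7a guide was at 8090 to 10163 in NC and 5476 to 6367 in circSOD2-sh (log2 -0.62, SE 0.085, adjusted p = 0.000113). By contrast, let-7d-5p was at 472 to 528 and 627 to 695 (log2 0.41, SE 0.075, adjusted p = 0.000995). Its adjusted p was 0.0688 without circSOD2-sh replicate 3 (log2 0.25), and 0.50 when libraries were scaled by the totals of known miRNAs (log2 0.07).

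The guides let-7f-5p, let-7g-5p and let-7c-5p did not pass the test (log2 -0.16, -0.29 and -0.07; adjusted p = 0.106, 0.0608 and 0.761). Of the libraries that stood apart, circSOD2-sh replicate 2 was the lowest of its group for let-7g-5p (4470 normalized CPM against 6022 to 6831) and the highest for let-7c-5p (372 against 216 to 217). Without both of these libraries all 3 were called lower (log2 -0.20, -0.26 and -0.31, adjusted p = 0.0301, 0.0124 and 0.0162). For let-7f-5p and let-7g-5p the call varied with the setting. Both were also called lower without NC replicate 1 (adjusted p = 0.0256 and 0.0326), without any single circSOD2-sh library (0.0169 to 0.0389 and 0.00686 to 0.039) and with the totals of known miRNAs (0.000347 and 0.00201), and let-7g-5p also with DESeq2 (0.0409) and with no filter (0.0482). Neither was called without NC replicate 2, 3 or 4 (0.052 to 0.0815 and 0.0514 to 0.0661), with the replicate number as a block (0.0828 and 0.0562) or with known miRNAs only (0.312 and 0.187), and let-7f-5p was not called with DESeq2 (0.0882) or with no filter (0.213). By contrast, let-7c-5p was called when circSOD2-sh replicate 2 alone was left out (log2 -0.41, adjusted p = 0.0112) and with no other single library left out. With library totals all 3 turned (log2 0.81, 0.68 and 0.89).

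Hairpins that share a cluster with let-7a-2, let-7c, let-7e or let-7f-2 were taken as partners. Of the 13 partner arms, 5 were higher and 3 lower, against 33.3% and 32.4% of all 895 miRNAs. The higher ones were miR-100-5p (log2 2.79), miR-125a-5p (2.09), miR-99a-5p (1.64), miR-99b-5p (0.80) and miR-125b-5p (8.60). The last was at 10.17 without NC replicate 4 and at 10.07 without that library and circSOD2-sh replicate 2, and whether its NC counts, 64 to 449, are complete in the deposited table is not known. The lower ones were miR-125b-1-3p (log2 -1.11), miR-125a-3p (-1.07) and miR-125b-2-3p (-0.36), which with library totals were at -0.15, -0.10 and 0.61. The remaining 5, miR-98-5p, miR-98-3p, miR-99a-3p, miR-99b-3p and miR-100-3p, did not pass the test, although miR-98-5p was called lower when circSOD2-sh replicate 2, 3 or 4 was left out (log2 -0.21, -0.37 and -0.32, adjusted p = 0.0485, 0.0296 and 0.0452). With the totals of known miRNAs, miR-98-5p, miR-99a-3p, miR-99b-3p and miR-100-3p were all called lower (log2 -0.52, -0.65, -0.40 and -0.67, adjusted p = 0.00172, 0.0165, 0.00977 and 0.0373), whereas with library totals these 4 and miR-98-3p were all called higher (0.79, 0.65, 0.91, 0.64 and 1.04, adjusted p = 8.99e-05, 0.0122, 3.11e-05, 0.0294 and 0.000422). The miR-99 and miR-100 family is known to target MTOR, and the miR-125 family is known to target LIN28.

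Within the MIR100HG cluster the arms can be read side by side. From NC to circSOD2-sh, miR-100-5p rose from a range of 17920 to 19097 normalized CPM to one of 122705 to 138434, and miR-125b-1-3p fell from 1443 to 1471 to a range of 646 to 727, beside the rise of let-7a-2-3p given above. None of the groups overlapped for these 3 arms, which was also so for 60.3% of all 895 miRNAs. With library totals miR-125b-1-3p was at -0.15 and was not called. The entry miR-100-3p, the passenger of miR-100-5p, was at 5.62 to 7.52 in NC and 3.01 to 6.36 in circSOD2-sh (log2 -0.33, SE 0.23, adjusted p = 0.232). The listed level of miR-125b-5p rose by 8.60 on the log2 scale, though its NC counts may be incomplete. In the MIR99B cluster, let-7e-3p, miR-125a-5p and miR-99b-5p rose and miR-99b-3p did not pass the test (log2 -0.06). In the same cluster let-7e-5p and miR-125a-3p fell, these being at 0.32 and -0.10 with library totals.

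**Figure D4:**
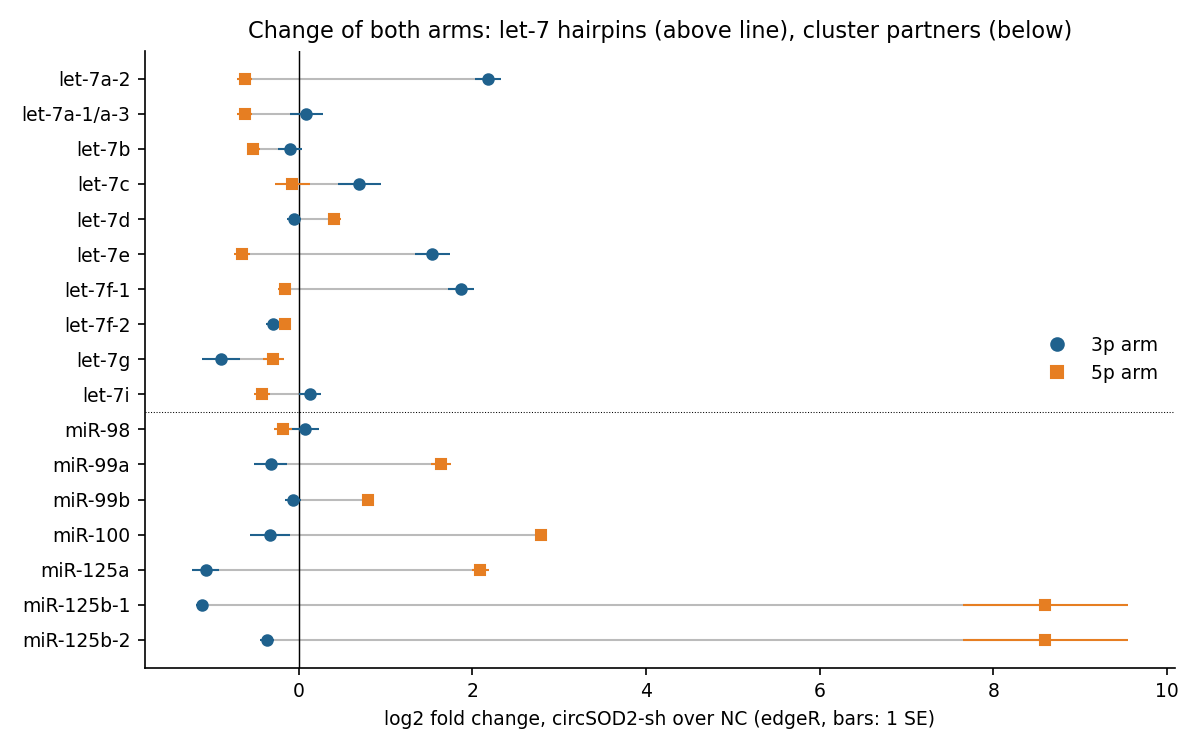
Log2 fold change, circSOD2-sh over NC, of the 3p arm (circles) and the 5p arm (squares) of each let-7 hairpin (above the dotted line) and each cluster partner (below). Bars are 1 SE derived from the F statistic of edgeR, and a guide shared by several hairpins is drawn once for each. The 3p arm lies to the right of the 5p arm for let-7a-2, let-7a-1/a-3, let-7b, let-7c, let-7e, let-7f-1, let-7i and miR-98, and to the left for let-7d, let-7f-2, let-7g, miR-99a, miR-99b, miR-100, miR-125a and miR-125b; with library totals as the scaling all points move by about 0.96 to the right.

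The size of every level change depended on the scaling. Scaling by the totals of known miRNAs, chosen after seeing the data, moved the median of all 895 miRNAs by -0.34 and gave let-7a-2-3p 1.83, let-7f-1-3p 1.51 and let-7e-3p 1.20. With library totals these were 3.14, 2.83 and 2.52. These 3 members were called higher under each scaling tried, while let-7a-3p and let-7i-3p turned to -0.25 and -0.22 with the totals of known miRNAs, neither called. The split called over the whole table, 298 higher and 290 lower (50.7% higher), became 79.5% higher with library totals, 78.1% with upper-quartile normalization and 34.8% with the totals of known miRNAs. The 3p shares and ratios, which set counts of the same library against each other, do not move in this way.

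**Figure D5:**
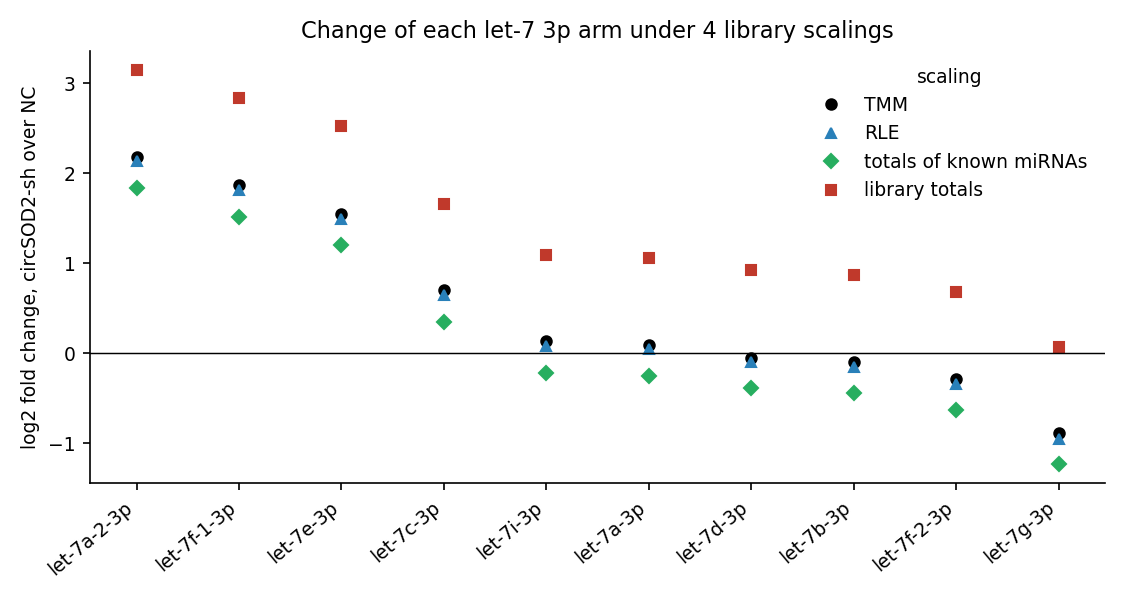
Log2 fold change of the 10 let-7 3p arms, circSOD2-sh over NC, under 4 library scalings: TMM, RLE size factors, totals of known miRNAs and library totals. The order of the members is kept, let-7a-2-3p, let-7f-1-3p, let-7e-3p and let-7c-3p stay above 0 throughout, and let-7g-3p is at -0.89 with TMM and 0.07 with library totals.

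The miRNAs with the most similar patterns were sought among 453 known miRNAs, by the Euclidean distance of centred log2 normalized CPM over the 8 libraries. For the most abundant member, let-7a-3p, the nearest were miR-589-5p (distance 0.519), miR-301a-5p (0.566) and miR-3929 (0.574), none of which passed the test between groups. For the member with the largest fitted change, let-7a-2-3p, they were miR-93-3p (0.397) and miR-125a-5p (0.407), and then miR-181b-2-3p, whose place rests on NC counts of 1 to 3, not above the floor. Of these, miR-93-3p is itself a passenger arm, with NC libraries at 14.4 to 15.5 normalized CPM and circSOD2-sh libraries at 48.9 to 63.6, and miR-125a-5p is a guide of the cluster that holds let-7e.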

How the data were processed

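The authors deposited raw counts per mature miRNA and CPM (counts per 1000000 of a library total larger than the listed counts) for 8 small RNA libraries; a file of their own comparison (fold changes and p-values) was not used. The submitters' processing notes name FastQC 0.11.2, Trimmomatic 0.36, Bowtie 1.1.1 and GRCh38. The counting tool and miRNA annotation are not given in the sources used here. Total counts were 3743860 to 9245044 per library, and no 2 libraries of a group agreed within sampling noise.

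Levels were tested on counts with edgeR 4.0.16 (filterByExpr with a minimum count of 10, TMM, prior count 0.125) in R 4.3.3. The SE of a level change was derived, as the absolute log2 fold change over the square root of the F statistic. Arm ratios were tested with limma 3.58.1 on log2 of normalized CPM plus 0.5 for each arm. Both used Benjamini-Hochberg adjustment over the whole table, and both were tested on simulated data. Shares were taken from counts with Wilson intervals (scipy 1.17.1). DESeq2 1.42.0, other scalings, filters, constants, the deposited CPM, a replicate block and left-out libraries were the alternatives. Named miRNAs were the members, their guides, the miRNAs of their clusters and the 3 nearest patterns of 2 members. Members and lists were chosen with earlier results of these data known. Figures were drawn with matplotlib 3.10.9.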

Additional observations from a re-analysis of the deposited data

Results flagged for a closer look

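In 40 groups of 4 libraries, 4 had a library far from the other 3, and chance alone gives about 1 in 20. NC replicate 2 was low for let-7a-2-3p (8.005 normalized CPM against 9.20 to 9.38), and NC replicate 4, the library with high stromal miRNAs, was low for let-7d-3p (182.9 against 196.8 to 198.8). NC replicate 3 was low for let-7e-3p (2.387 against 3.53 to 3.69 normalized CPM) and for the 3p share of let-7e (0.4701% against 0.742% to 0.757%), which rest on 14 counts. Leaving each of these libraries out ended the call of none of let-7a-2-3p, let-7e-3p and the let-7e ratio.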

How the results depend on the processing

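The levels of let-7a-2-3p and let-7f-1-3p kept their direction and call under every alternative, and let-7e-3p under every one that tested it (a mean of at least 50 counts left out let-7e-3p, let-7c-3p and let-7g-3p). No let-7 arm ratio changed direction under any alternative. The cause of the changes below was not tested, except that scalings move all miRNAs together and that stricter filters test fewer of them.

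With library totals, upper-quartile normalization and limma with a constant of 1 or of 0.1 added to the deposited CPM, the let-7 3p arms called higher were 9, 9, 9 and 9 and those called lower 0, 0, 0 and 0, and over all miRNAs tested the calls were 613, 570, 559 and 553 higher and 158, 160, 163 and 163 lower. Changes below 0 that turned positive, in the order of these 4 settings, were let-7b-3p (0.87, 0.75, 0.69, 0.71), let-7d-3p (0.92, 0.80, 0.77, 0.78), let-7f-2-3p (0.68, 0.56, 0.53, 0.53) and, with library totals, let-7g-3p (0.07). The guides that turned were let-7a-5p (0.35, 0.23, 0.21, 0.21), let-7b-5p (0.45, 0.32, 0.30, 0.31), let-7c-5p (0.89, 0.76, 0.72, 0.72), let-7e-5p (0.32, 0.19, 0.17, 0.17), let-7f-5p (0.81, 0.69, 0.67, 0.67), let-7g-5p (0.68, 0.57, 0.52, 0.52) and let-7i-5p (0.55, 0.43, 0.39, 0.39). Among partners they were miR-98-5p (0.79, 0.67, 0.64, 0.64), miR-100-3p (0.64, 0.50, 0.38, 0.44), miR-125b-2-3p (0.61, 0.48, 0.46, 0.46), miR-99a-3p (0.65, 0.52, 0.41, 0.49) and miR-99b-3p (0.91, 0.78, 0.75, 0.77).

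The totals of known miRNAs, added after seeing the data, gave 3 let-7 3p arms higher and 4 lower, against 215 and 402 of all 895 miRNAs. They turned let-7a-3p (-0.25), let-7i-3p (-0.22) and miR-98-3p (-0.27). With known miRNAs only, 123 were called higher and 123 lower, and let-7d-3p was at 0.00. A mean of at least 50 counts left 2 let-7 3p arms higher and 1 lower, against 149 and 212 of 502 miRNAs. With both arms at that mean, 25 hairpin families had a higher and 26 a lower ratio. With no filter 3 let-7 3p arms were higher and 1 lower, against 362 and 293 of 3112 miRNAs. Without both libraries that stood apart, let-7i-3p was at -0.03 and miR-98-3p at -0.10. Of the 8 let-7 families 5 then had a higher and 2 a lower ratio, against 43 and 39 of the hairpin families then tested, whose number was not kept (129 with all libraries).

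With any library left out, 3 to 4 let-7 3p arms were higher and 2 lower. Over the 894 to 970 miRNAs then tested, 256 to 303 were higher and 279 to 358 lower. For ratios, 4 to 6 of the 8 let-7 families were higher and 1 to 2 lower. Of the hairpin families then tested, whose number was not kept (129 with all libraries), 37 to 43 were higher and 33 to 40 lower. The level changes of members not called ran from -0.19 to 0.14 for let-7a-3p and from -0.03 to 0.09 for let-7i-3p. For let-7b-3p they ran from -0.31 to -0.10 and for let-7d-3p from -0.21 to -0.09, against -0.10 and -0.05 with all libraries. The partner miR-98-3p ran from -0.14 to 0.08.

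No source says whether same-numbered libraries belong together. Their deviations correlated at 0.26, -0.0994, 0.0964 and -0.174 for replicates 1 to 4, and NC replicate 4 with circSOD2-sh replicate 2 at 0.264. So few libraries cannot settle whether the numbers mark pairs. With the replicate number as a block, 296 miRNAs were higher and 278 lower, 4 and 2 of them let-7 3p arms. Of the 8 let-7 families, 5 had a higher and 2 a lower ratio, against 37 and 35 of all 129 hairpin families. Here let-7c (0.74, adjusted p = 0.0125) and let-7g (-0.46, adjusted p = 0.0406) also passed. The block changed no other call of a let-7 arm or ratio. Depth limits let-7g-3p and let-7e-3p most, which had as few as 9 and 14 counts.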

Other observations

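The arms of miR-125b, partner of let-7a-2 and let-7c, were unevenly listed. In NC, miR-125b-5p had 73, 64, 64 and 449 counts in replicates 1 to 4, while the entry of its passenger miR-125b-1-3p had 9561, 9370, 8552 and 6546. In circSOD2-sh the guide had 64125 to 78603 counts and the passenger 3623 to 3800. As listed, the guide was the rarer arm in every NC library and the more abundant one in every circSOD2-sh library, but whether the NC counts of miR-125b-5p are complete in the deposited table is not known. NC replicate 4, with high stromal miRNAs, had the highest miR-125b-5p level of its group (100.9 normalized CPM against 9.85 to 11.2).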
